A study of Mus musculus with 14 samples.

Results

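The transcription factors ELK4 and C/EBPβ were compared by their binding sites in mesoderm (MES), the first population of a blood differentiation course from mouse embryonic stem cells. The members were all peaks of 2 lists, 524 for ELK4 and 1177 for C/EBPβ, chosen by antibody and stage from the labels. They made up 1701 of the 158488 peaks in the series, which holds 14 lists. Sites had been mapped by chromatin immunoprecipitation and sequencing (ChIP-seq). Both lists came from an embryonic stem cell line with a Brachyury-GFP reporter, grown as embryoid bodies, from which cells positive for GFP and negative for Flk1 were sorted. No treatment separated the lists, so that they shared the cell line, the gate and the stage, and they differed in the antibody. Each factor had 1 list and no replicate, and every test below sets 1 library against another. The C/EBPβ list joined several technical sequencing runs and the ELK4 list came from 1 run. Peak thresholds had been set by eye for each list, so that the number of peaks is not an amount of binding. The paper gives a stricter cutoff for ELK4 than for C/EBPβ in mesoderm. It also reports enrichment by quantitative PCR at a known site for ELK4 and none for C/EBPβ. How far the shares below depend on this was not tested. The lists hold positions only, and the depth behind a peak is unknown. Expression was not analysed here, and the mesodermal identity of the cells was not checked against marker genes.

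ELK4 is an ETS domain protein of the ternary complex factor family. These proteins bind ETS sites beside a CArG box, the site of serum response factor (SRF), and pass growth factor signals to immediate early genes such as Fos and Egr1. C/EBPβ is a basic leucine zipper protein that binds palindromic sites as a dimer. It also pairs with ATF4, the factor of the amino acid response, and the pair recognises a mixed site known as the C/EBP-ATF element.

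Part of the ELK4 list carried the site of another factor. A p53 response element, the paired site of the tumour suppressor p53, lay in 110 of its 524 peaks (21.0%, exact 95% interval 17.6 to 24.7%) and in 0.191% of equal windows 2 kb to either side. The element was sought as 2 adjoining repeats of 10 bases, each of 3 purines, C, A or T in both middle places, G and 3 pyrimidines, with at most 2 mismatches over the 20 bases and the C and G of each repeat fixed. In the C/EBPβ list of the same cells it lay in 6 of 1177 peaks (0.510%), and in the other 12 lists in 0 to 1.20% of peaks. It occurred in 0.431% of 400 bp windows at all 25999 coding start sites. The search was added after the values had been seen, so these shares are a description. Whether these peaks reflect ELK4 itself was not tested, and the main promoter, distance and consensus values below are also given without them.

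The sequences that carry the comparison are given first, each 30 bases long, from the RefSeq sequence of GRCm38 (mm10), written from 5′ to 3′ on the strand named. Among ELK4 peaks at immediate early genes, the capitals mark the CArG box, CC and GG around 6 bases of A or T. The sites are chr12:85473571-85473600 upstream of Fos, chr8:84980149-84980178 upstream of Junb, chr10:67537484-67537513 at Egr2, chr14:70074861-70074890 upstream of Egr3, chr15:74679276-74679305 upstream of Arc and chr10:99285891-99285920 near Dusp6, all on the plus strand.
Fos: cacaggatgtCCATATTAGGacatctgcgt
Junb: tccccagcacCCATATTAGGgcacaggaag
Egr2: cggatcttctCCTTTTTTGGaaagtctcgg
Egr3: ctgtgcggttCCTTTAAAGGctgcgggttc
Arc: gcttccggcaCCATAAAAGGagagaggctg
Dusp6: tccgttcctcCCTTATATGGccatggccgg

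The p53 elements of ELK4 peaks are shown at known p53 target genes, with the 20 bases of the match in capitals. They lie at chr17:29090923-29090952 (Cdkn1a), chr10:117717731-117717760 (Mdm2), chr11:40755457-40755486 (Ccng1), chr3:108384651-108384680 (Psrc1) and chr3:32364326-32364355 (Zmat3), on the plus strand. The Zmat3 site had 0 mismatches and each of the other four had 1.
Cdkn1a: ttcagGAACATGTCTTGACATGTTCagccc
Mdm2: tgcttGGACATGTTTGTACATGTTTcctcc
Ccng1: tgccaAGGCTTGCCCGGGCAGGTCTggcct
Psrc1: tccctGGGCATGTTGAGGCATGCCCtgcaa
Zmat3: tcccaAGACATGCCTGGGCTTGTTTctcac

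The C/EBP-ATF element, TGATGCAA, is in capitals in C/EBPβ peaks at genes of amino acid stress and at tRNA synthetase genes. The sites are chr10:127290481-127290510 (Ddit3, minus strand), chr2:119351038-119351067 (Chac1, minus), chr11:120643833-120643862 (Pycr1, minus), chr11:20332699-20332728 (Slc1a4, plus), chr10:127311638-127311667 (Mars1, plus) and chr4:129189895-129189924 (Yars, plus).
Ddit3: gggggcggggaTGATGCAAtgtttggcaac
Chac1: cctggcaggagTGATGCAAcggcagggaag
Pycr1: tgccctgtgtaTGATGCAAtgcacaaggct
Slc1a4: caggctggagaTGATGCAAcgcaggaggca
Mars1: ggagcccacgcTGATGCAAtcggaaccggc
Yars: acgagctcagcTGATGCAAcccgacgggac

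Last come start sites with the plain consensus of each factor, CCGGAAGT for ELK4 and TTGCACAA, TTGCATAA, TTGCGCAA or TTGCGTAA for C/EBP, in capitals. Wdr3 (chr3:100162382-100162411, minus strand) and Zbtb17 (chr4:141444817-141444846, plus) had the ELK4 word. Per1 (chr11:69098914-69098943, minus) and Ccdc97 (chr7:25719037-25719066, minus) had a C/EBP word, followed at Ccdc97 by the ELK4 word in lower case. Nup35, encoding a nuclear pore protein, is shown at chr2:80638775-80638804 for the ELK4 word and at chr2:80638782-80638811 for the C/EBP word, both on the plus strand, because both words adjoin there.
Wdr3: ttccaatcggaCCGGAAGTggcgggtctcg
Zbtb17: gcgccagcggtCCGGAAGTcccgggaggcg
Per1: tgggaggcgggTTGCATAAtgccaggccct
Ccdc97: cataaagacgcTTGCGTAAccggaagtacc
Nup35 (ELK4 word): agagagcatgaCCGGAAGTtgcgcaaccca
Nup35 (C/EBP word): atgaccggaagTTGCGCAAcccataaggct

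ELK4 peaks lay at promoters and C/EBPβ peaks mostly away from them. Peaks centred no more than 2 kb from a transcription start (TSS) of a RefSeq coding transcript count as promoter-proximal, and all others as distal. The promoter share was 340 of 524 for ELK4 (64.9%, 60.6 to 69.0%) and 324 of 1177 for C/EBPβ (27.5%, 25 to 30.2%). The difference of 37.4 percentage points was larger than counting error (odds ratio 4.86, two-sided Fisher's exact test, p = 1.1e-47). The intervals are exact and cover counting error only. Windows within 2 kb of a coding TSS covered 3.25% of the chromosomes. Without the peaks holding a p53 element the shares were 78.3% (74.0 to 82.1%) and 27.5%, a difference of 50.8 points. This filter was chosen after the values had been seen. Of the 110 ELK4 peaks it removes 94 were distal, so that the ELK4 share had to rise.

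Within promoters, too, ELK4 peaks sat closer to the start. The median distance from centre to TSS was 95 bp for the 340 ELK4 promoter peaks and 216 bp for the 324 of C/EBPβ. Centres within 100 bp of a TSS made up 34% of all ELK4 peaks (178 peaks, 29.9 to 38.2%) and 9.43% of C/EBPβ peaks (111 peaks, 7.82 to 11.2%). At the far end, 9.54% of ELK4 peaks (7.17 to 12.4%) and 31.4% of C/EBPβ peaks (28.7 to 34.1%) were over 50 kb from any coding TSS. Without peaks holding a p53 element these shares for ELK4 were 42.5% within 100 bp (37.7 to 47.4%) and 5.07% over 50 kb away (3.17 to 7.65%). Of the ELK4 promoter peaks 248 were centred upstream of the TSS and 92 at or downstream of it, and for C/EBPβ these were 202 and 122. Coding genes on both strands started within 2 kb of 65 ELK4 promoter peaks (19.1%) and of 37 C/EBPβ promoter peaks (11.4%).

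**Figure D1:**
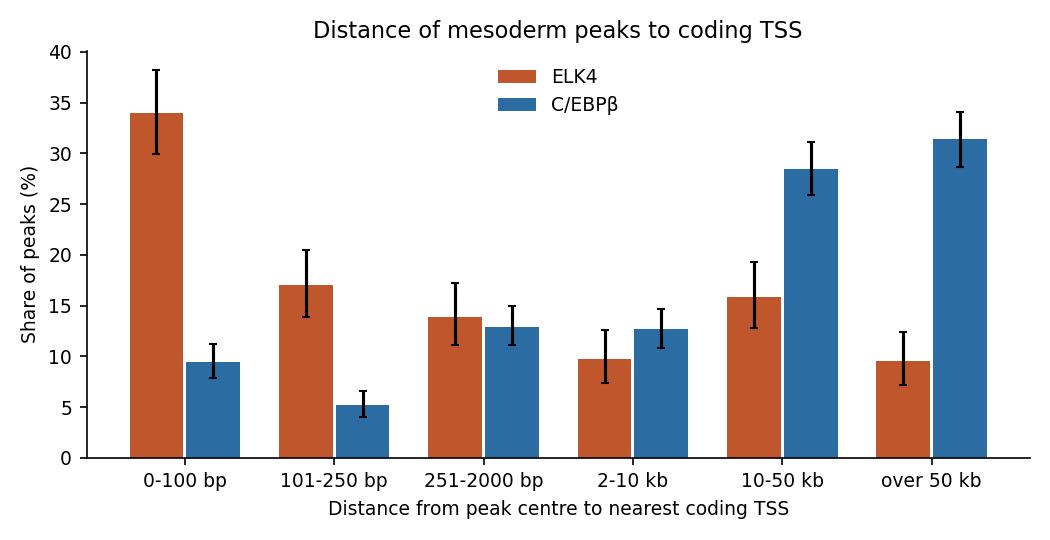
Share of the 524 ELK4 and 1177 C/EBPβ mesoderm peaks (y axis, percent of each list) by distance from the peak centre to the nearest coding TSS (x axis), with exact 95% intervals as error bars. ELK4 is highest in the class nearest to the TSS, with 34% of its peaks within 100 bp, and C/EBPβ in the farthest, with 31.4% over 50 kb away.

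By annotation, peak centres lay in a 5′ UTR for 60 ELK4 peaks (11.5%) and 48 C/EBPβ peaks (4.08%), and in an intron of a coding gene for 117 (22.3%) and 442 (37.6%). Among promoter peaks, 48 of 340 ELK4 centres were intronic (14.1%, 10.6 to 18.3%) against 96 of 324 for C/EBPβ (29.6%, 24.7 to 34.9%). Of the distal peaks 37.5% of 184 for ELK4 (30.5 to 44.9%) and 40.6% of 853 for C/EBPβ (37.2 to 43.9%) were in introns, with overlapping intervals. Median GC content was 59.9% at ELK4 and 58.0% at C/EBPβ promoter peaks, where windows at all coding TSS had 59.0%, and at distal peaks it was 51.2% and 46.8%. The 90 distal ELK4 peaks without a p53 element had an intronic share of 37.8% (27.8 to 48.6%) and a median GC content of 53.8%.

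Shares of 8 consensus sequences were compared between the lists in all, promoter and distal peaks, 24 comparisons of which 13 passed an adjusted p of 0.05 (Fisher's exact test, two-sided, Benjamini-Hochberg over the 24), 5 with the higher share in ELK4 and 8 in C/EBPβ. All words were searched on both strands of the 400 bp peak. The C/EBP words set the lists apart at both kinds of site. They lay in 152 of 324 C/EBPβ promoter peaks (46.9%) and 9 of 340 ELK4 promoter peaks (2.65%, adjusted p = 1.0e-44 by Fisher's exact test), beside 2.11% of all coding promoters. At distal peaks the shares were 41.9% and 2.17% (adjusted p = 4.4e-31, Fisher's exact test), and without peaks holding a p53 element 41.7% (354 of 849) and 0 of 90, which allows up to 4.02% (adjusted p = 2.3e-19, Fisher's exact test). In windows flanking the ELK4 peaks the shares were 2.5% at promoters and 1.9% at distal sites.

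The ELK4 word, which is common in promoters, separated the lists less. Over all peaks it lay in 49 of 524 for ELK4 (9.35%) and 35 of 1177 for C/EBPβ (2.97%). That difference passed (odds ratio 3.37, adjusted p = 3.1e-07, Fisher's exact test). At promoter peaks it was found in 48 of 340 ELK4 peaks (14.1%) and 29 of 324 C/EBPβ peaks (8.95%), with all promoters at 5.45%, and the difference did not pass (odds ratio 1.67, adjusted p = 0.0637, Fisher's exact test). Without the peaks holding a p53 element, a filter chosen after the values had been seen, the odds ratio was nearly the same. It was 1.76 and passed narrowly (adjusted p = 0.0454, Fisher's exact test). The shorter ETS core CCGGAA lay in 151 ELK4 promoter peaks (44.4%) and 90 C/EBPβ promoter peaks (27.8%), where all promoters had 22.2%, and that difference passed (odds ratio 2.08, adjusted p = 2.6e-05, Fisher's exact test). At distal sites the full word was in 1 of 184 ELK4 peaks and 6 of 853 C/EBPβ peaks (odds ratio 0.771, adjusted p = 1, Fisher's exact test). Without peaks holding a p53 element it was in 1 of 90 and 6 of 849, and the odds ratio turned to 1.58 (adjusted p = 0.609, Fisher's exact test), so that 1 peak gives no direction. ELK4 words lay a median 62 bp from the centre, with 21 of 49 inside 50 bp, whereas C/EBP words in C/EBPβ peaks lay a median 12 bp away, with 442 of 509 inside 50 bp.

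The CArG box, which binds the SRF partner of ELK4, was more frequent in the ELK4 list. It occurred in 27 ELK4 peaks (5.15%) and 23 C/EBPβ peaks (1.95%, odds ratio 2.73, adjusted p = 0.00163, Fisher's exact test). The difference passed at distal peaks, 11 of 184 (5.98%) against 16 of 853 (1.88%, adjusted p = 0.00838), and not at promoter peaks, 4.71% against 2.16% (adjusted p = 0.135), except over the central 200 bp (odds ratio 6.4, adjusted p = 0.0149, Fisher's exact test). Without peaks holding a p53 element the distal shares were 11.1% (10 of 90) and 1.88% (16 of 849), and the odds ratio rose from 3.33 to 6.51 (adjusted p = 1.6e-04, Fisher's exact test). All promoters had 1.54%. The boxes were central, with 19 of 27 inside 50 bp and a median of 18 bp. The core CCGGAA was in 12 of the 27 peaks and in 169 of all 524 ELK4 peaks (32.3%).

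The C/EBP-ATF element went with C/EBPβ. It lay in 31 C/EBPβ promoter peaks (9.57%) and 2 ELK4 promoter peaks (0.588%, odds ratio 0.0559, adjusted p = 8.1e-08, Fisher's exact test), and in 0.804% of all promoters. At distal sites the shares were 4.92% and 0.543% (adjusted p = 0.00838, Fisher's exact test), and without peaks holding a p53 element 4.83% and 0 of 90 (adjusted p = 0.0454, Fisher's exact test). The AP-1 words TGACTCA and TGAGTCA, sites of FOS and JUN dimers, were also more frequent in C/EBPβ promoter peaks, 7.41% against 2.65% (adjusted p = 0.0132, Fisher's exact test), beside flanking windows at 8.80% for C/EBPβ and 7.21% for ELK4 and all promoters at 5.15%. Distal peaks held them in 10.3% (C/EBPβ) and 9.78% (ELK4) of cases, a difference that did not pass (odds ratio 0.943, adjusted p = 0.975, Fisher's exact test). Over all peaks the AP-1 shares were 9.52% for C/EBPβ and 5.15% for ELK4 (odds ratio 0.517, adjusted p = 0.00556, Fisher's exact test), and 9.56% and 3.38% without peaks holding a p53 element (odds ratio 0.331, adjusted p = 8.9e-05, Fisher's exact test). The cyclic AMP response element TGACGTCA was in 3.44% of ELK4 and 1.53% of C/EBPβ peaks (adjusted p = 0.0307), with 4.41% and 3.70% at promoters (adjusted p = 0.837, Fisher's exact test). The SP/KLF word GGGCGGG, typical of GC-rich promoters, was in 29.4% and 15.6% of all peaks (adjusted p = 1.1e-09) and in 39.4% and 40.1% at promoters (adjusted p = 0.975, Fisher's exact test). At distal peaks it was in 10.9% and 6.33% (odds ratio 1.8, adjusted p = 0.0637, Fisher's exact test), a difference that passed over the central 200 bp (odds ratio 2.72, adjusted p = 0.0141, Fisher's exact test) and without peaks holding a p53 element (odds ratio 2.94, adjusted p = 0.00433, Fisher's exact test). NFY words, ATTGGCT and ATTGGTT, passed in none of the 3 comparisons (lowest adjusted p = 0.62, Fisher's exact test).

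**Figure D2:**
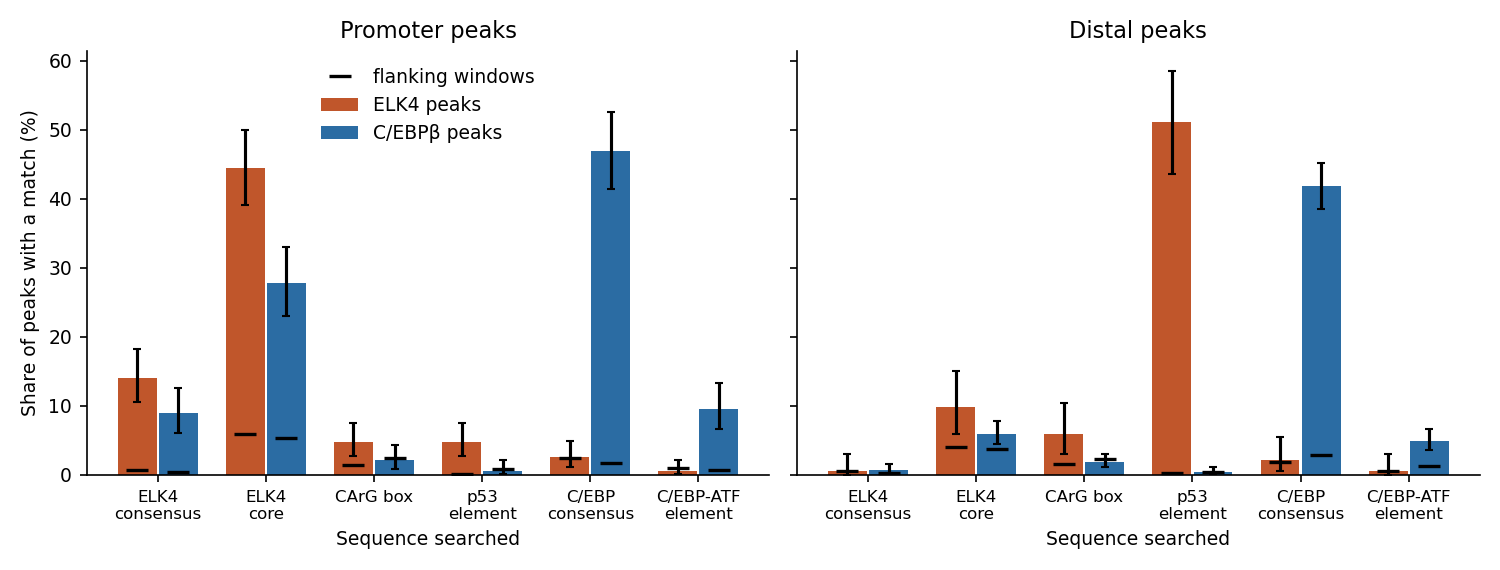
Share of promoter (left) and distal (right) peaks with a match to each sequence (y axis, percent), ELK4 in orange and C/EBPβ in blue, with exact 95% intervals, and black marks for the share in flanking windows 2 kb away. C/EBP words mark C/EBPβ peaks at both kinds of site (46.9% and 41.9%), the ELK4 core marks promoter peaks (44.4% and 27.8%), and the p53 element stands out in distal ELK4 peaks (51.1%).

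The p53 element was mainly a feature of distal ELK4 peaks. It was found in 94 of 184 distal peaks (51.1%, 43.6 to 58.5%) and 16 of 340 promoter peaks (4.71%, 2.71 to 7.53%). With 0 mismatches allowed it was still in 30 peaks, 28 of them distal, and the C/EBPβ list had 0 of 1177, which allows up to 0.313% by the exact interval. The match was the most central of those measured, a median 9 bp from the centre, with 102 of 110 inside 50 bp. Here the match with the fewest mismatches was taken, and for the other sequences the match nearest the centre. The element lay with CCGGAA in 6 peaks and with a CArG box in 2. At distal sites 4 of the 94 peaks with a p53 element held CCGGAA, where 18 of all 184 distal peaks did (9.78%), these 94 included. A CArG box was in 1 of the 94 and in 10 of the 90 distal peaks without the element (11.1%, 5.46 to 19.5%). Of the 110 peaks 84 were in no other list (76.4%), while 146 of the 414 ELK4 peaks without it were (35.3%). These sets also differ in location, since 94 of the 110 were distal and 324 of the 414 were promoter peaks. Promoter and distal peaks met other lists at different rates, as given below, and distal peaks alone were not compared. In 238 ELK4 peaks (45.4%) none of the core, the CArG box and the p53 element was found.

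**Figure D3:**
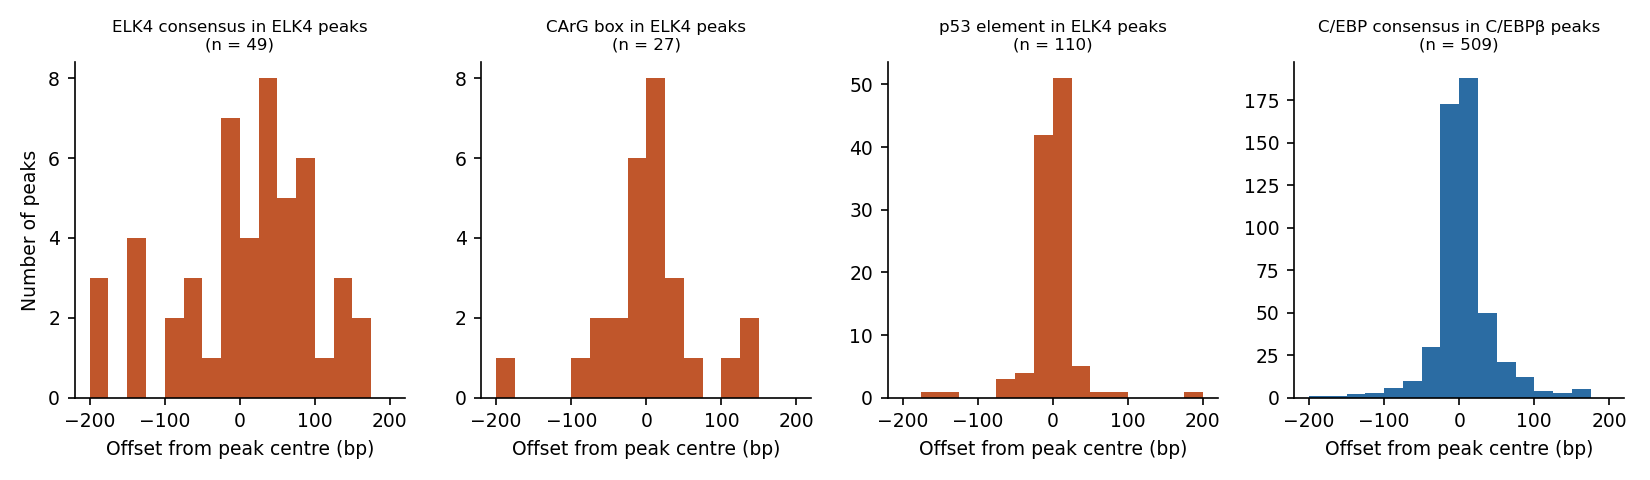
Number of peaks (y axis) by offset of the match nearest the peak centre (x axis, bp) for the ELK4 word, the CArG box and the p53 element in ELK4 peaks and for the C/EBP words in C/EBPβ peaks. The p53 element (102 of 110 inside 50 bp) and C/EBP words (442 of 509) cluster at the centre, and the ELK4 word is spread more widely (21 of 49).

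The nearest coding TSS to each peak gave 507 target genes for ELK4 (2.41% of the 21000 coding genes) and 1090 for C/EBPβ (5.19%). Promoter-proximal peaks gave 337 genes for ELK4 (1.6%) and 322 for C/EBPβ (1.53%), so that the promoter targets of both factors are of like number and gene groups can be read against nearly the same background. ELK4 put more than 1 peak at 16 genes and C/EBPβ at 72. In the ELK4 list Ier2 was the only gene with 3 peaks. C/EBPβ had 4 peaks nearest to the growth factor receptor gene Fgfr2, all distal, from 22469 bp upstream of its TSS to 326825 bp downstream, and 3 each at Foxo3 and Hprt among others.

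Among the 24 fixed groups, immediate early and serum response genes had the highest share of ELK4 promoters. Of 47 members 9 had an ELK4 promoter peak (19.1%, 9.15 to 33.3%), against 1.6% of all coding genes, and 4 more were the nearest gene to a distal peak. Without peaks holding a p53 element 8 had one, Junb being lost. The paper had checked the ELK4 material by quantitative PCR at the Fos promoter, and samples were generally sequenced after such enrichment. The Fos peak is therefore no independent result. The promoter peaks lay at Egr1, Egr2 and Egr4, zinc finger factors of the early growth response, at Fos and Junb, subunits of AP-1, at the nuclear receptor gene Nr4a1, and at Ier2, Btg2 and the survival gene Mcl1. Their centres were 402 bp (Egr1), 75 bp (Egr2), 80 bp (Egr4), 287 bp (Fos), 1341 bp (Junb), 75 bp (Nr4a1), 1225 bp (Ier2), 252 bp (Btg2) and 5 bp (Mcl1) upstream of the TSS. The distal members were Egr3, with a peak 2364 bp upstream, Arc, 6720 bp upstream, Dusp6, a phosphatase gene that limits ERK signalling, 22703 bp downstream, and Ier5, 43294 bp downstream. The Ier5 peak holds a p53 element with 0 mismatches and no CArG box.

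Several of these genes had more than 1 ELK4 peak. Fos had a second peak 12222 bp downstream of its TSS, which also held a CArG box. Btg2 had a second one 13990 bp upstream with a CArG box, which its promoter peak lacked. Junb had peaks at 1341 bp upstream and 2128 bp downstream, both with a CArG box, and the upstream one also matched the p53 element. In all, the 13 genes had 20 peaks, of which 10 held a CArG box and 10 the core CCGGAA. Among the nearest promoter peaks of members 4 of 9 had a CArG box, and among all other ELK4 promoter peaks 12 of 331 (3.63%). Of the 47 members 34 were not assigned an ELK4 peak, among them Srf itself, Jun and Fosb.

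C/EBPβ met this group at 4 promoters (8.51%, 2.37 to 20.4%), against 1.53% of all coding genes, with an interval that overlapped that of ELK4. They were Atf3, with a centre 38 bp downstream of the TSS and a C/EBP-ATF element, the pseudokinase gene Trib1, 93 bp upstream, Myc, 1734 bp upstream, and Ier2, 1138 bp downstream, all but Atf3 with C/EBP words. Ier2 was the only member with promoter peaks of both factors, and the centres of those promoter peaks were 2363 bp apart. The ELK4 peaks at Ier2 were 2182 and 1225 bp upstream and 2829 bp downstream, on either side of the C/EBPβ peak in the 3′ UTR.

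Amino acid stress genes had C/EBPβ and no ELK4 promoter peaks. Of 42 members 8 had a C/EBPβ promoter peak (19%, 8.60 to 34.1%) and 0 an ELK4 peak (0 to 8.41%), where all coding genes had 1.53% and 1.6%. The 8 were Ddit3 and Cebpg, which encode C/EBP family partners, Trib3, a pseudokinase that binds ATF4, Chac1, which degrades glutathione, Pycr1 of proline synthesis, the neutral amino acid transporter Slc1a4, Herpud1 and the stress cytokine gene Gdf15. Centres lay 308 bp upstream at Ddit3, 350 bp downstream at Cebpg, 9 bp upstream at Trib3, 193 bp upstream at Chac1, 104 bp upstream at Pycr1, 12 bp downstream at Slc1a4, 145 bp upstream at Herpud1 and 1094 bp downstream at Gdf15. Exactly 6 of these 8 peaks held the C/EBP-ATF element (75%, 34.9 to 96.8%), all but Trib3 and Gdf15, and 0 of 8 a plain C/EBP word. Among the other C/EBPβ promoter peaks 25 of 316 (7.91%) had the element and 152 (48.1%) a plain word. Slc7a5, an amino acid transporter gene, had a further C/EBPβ peak with the element in an intron 9102 bp from its TSS. The gene of ATF4 and its target Asns were assigned no peak of either factor.

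Aminoacyl-tRNA synthetase genes, whose enzymes charge tRNAs, had promoter peaks of both factors, with overlapping intervals. C/EBPβ peaks lay at 8 of 37 promoters (21.6%, 9.83 to 38.2%, all coding genes 1.53%), among them Aars, Cars, Iars, Mars1, Nars, Sars and Yars. These 7 all held the C/EBP-ATF element. Their centres were within 100 bp of the TSS at 7 of the 8 genes, Sars being 1071 bp downstream. ELK4 had 3 promoters of the group (8.11%, 1.70 to 21.9%, all coding genes 1.6%), at Aars2, Vars and Nars. Nars was the overlap of both factors, with centres 24 bp apart and an ELK4 word in the ELK4 peak.

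Among 84 splicing genes 7 had a C/EBPβ promoter peak (8.33%, 3.42 to 16.4%, all coding genes 1.53%) and 0 an ELK4 promoter peak (0 to 4.30%, all coding genes 1.6%), and these intervals overlap. They were Hnrnpa2b1, Hnrnpf, Hnrnph1, Hnrnpl and Hnrnpu, which encode proteins of heterogeneous ribonucleoprotein particles, the spliceosome gene Sf3b2 and the splicing factor gene Srsf2. Plain C/EBP words were in the peaks at Hnrnpa2b1, Hnrnpu, Sf3b2 and Srsf2, and the C/EBP-ATF element in none of the 7. Histone genes had 4 C/EBPβ promoters of 102 (3.92%, 1.08 to 9.74%) and 0 for ELK4 (0 to 3.55%), intervals that hold the shares of all coding genes.

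Homeobox genes, many of which pattern the embryo, were near the all-gene shares at their promoters. Of 221 members 7 had a C/EBPβ promoter peak (3.17%, 1.28 to 6.42%), Dlx1, Emx2, Gsc, Hlx, Hoxc13, Hoxd11 and Meox2, and 0 an ELK4 promoter peak (0 to 1.66%), intervals that hold the 1.53% and 1.6% of all coding genes. With distal peaks included, 20 homeobox genes were nearest to a C/EBPβ peak and 2 to an ELK4 peak. Against 5.19% and 2.41% of all genes by the same rule, these are 9.05% and 0.905% of the group. The rule has no distance limit, and the C/EBPβ peak assigned to Msx2 lay 276016 bp upstream. The paper warns that such links depend on the size of the regions between genes, which was not adjusted for here. The C/EBPβ peaks at Dlx1, Gsc, Hoxd11 and Meox2 held a C/EBP word.

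Each factor had 1 promoter peak among 34 mesoderm regulators (2.94%, 0.0744 to 15.3%), where all coding genes had 1.6% for ELK4 and 1.53% for C/EBPβ. Among these 34 mesoderm regulators ELK4 had the promoter of Foxf1, 637 bp upstream, and a peak with a p53 element 25969 bp from Snai1, and C/EBPβ had Gsc and, 112750 bp away, Evx1. The genes Mixl1, Eomes, Mesp1 and Kdr were assigned no peak. Of the 16 transcription factor genes in the study's network, 0 were nearest to an ELK4 peak, beside 2.41% of all coding genes. For C/EBPβ 5 were (31.2%, beside 5.19% of all coding genes), with a promoter peak at Tal1, 588 bp downstream of the TSS with a C/EBP word. The others were distal peaks, 18288 bp upstream of Runx1, 33539 bp upstream of Gfi1, 69017 bp downstream at Fli1 and 122391 bp upstream of Meis1. At promoters C/EBPβ had 1 of the 16 (6.25%, 0.158 to 30.2%), an interval that holds the 1.53% of all coding genes. Tal1, a master regulator of blood formation, had a second C/EBPβ peak 21184 bp upstream. The 26 ETS family genes had 0 promoter peaks of either factor, which allows 0 to 13.2% and does not set them apart from all coding genes.

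Several further gene groups held a few ELK4 promoter peaks, to be read against 1.6% of all coding genes for ELK4 and 1.53% for C/EBPβ. There were 3 of 29 for endoplasmic reticulum stress and chaperones (10.3%, 2.19 to 27.4%), at Atf6, Hsp90aa1 and Hspe1, and 3 of 39 proteasome genes (7.69%, 1.62 to 20.9%), at Psmb5, Psmd12 and Psmd7, where C/EBPβ had 0 and 1. Of 84 ribosomal protein genes 3 had an ELK4 promoter peak (3.57%), Rpl10, Rpl30 and Rps19, each with the core CCGGAA, and 1 a C/EBPβ promoter peak, Rpl10a. Zinc finger genes of the Zfp series had 10 of 395 for ELK4 (2.53%, 1.22 to 4.61%) and 4 for C/EBPβ (1.01%, 0.277 to 2.57%). In each of these 4 groups the intervals of the factors overlap, and the ELK4 intervals of the ribosomal (0.743 to 10.1%) and Zfp genes hold the share of all coding genes. ELK4 also had 2 of 99 oxidative phosphorylation (2.02%), 1 of 78 mitochondrial ribosomal (1.28%) and 1 of 71 translation factor promoters (1.41%). It had 1 of 28 RNA polymerase (3.57%) and 1 of 30 Mediator promoters (3.33%). The intervals of these other groups all hold the share of all coding genes. Olfactory receptor genes had 1 promoter peak of each factor among 1107.

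**Figure D4:**
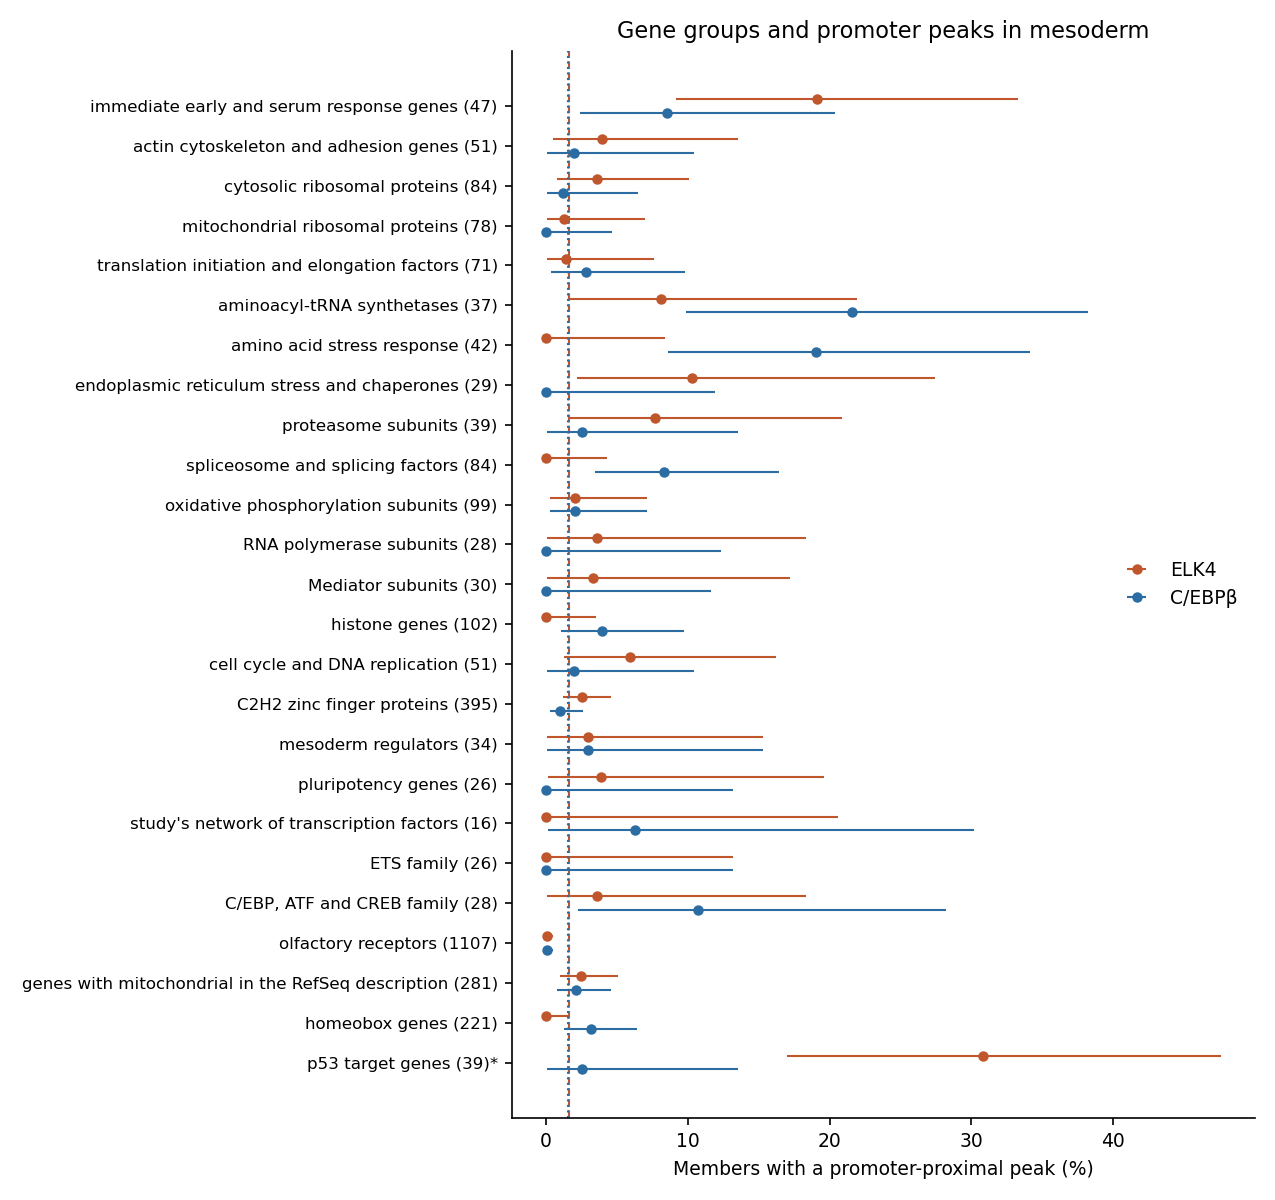
Share of the members of each gene group with a promoter-proximal peak (x axis, percent), ELK4 in orange and C/EBPβ in blue, with exact 95% intervals and the number of coding genes in brackets. Vertical lines mark all coding genes (ELK4 dashed, 1.6%, C/EBPβ dotted, 1.53%), and the asterisk marks the p53 target group, added after the values were seen. Immediate early genes stand at 19.1% for ELK4, and amino acid stress and tRNA synthetase genes at 19% and 21.6% for C/EBPβ.

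Genes known as p53 targets were counted after the p53 element had been seen, so their number is a description. Of 39 genes 12 had an ELK4 promoter peak (30.8%, 17.0 to 47.6%) and 1, Gdf15, a C/EBPβ promoter peak (2.56%), where all coding genes had 1.6% and 1.53%. They were Cdkn1a, the cell cycle inhibitor p21, Bax and Bbc3 of cell death, Ccng1, Zmat3, Phlda3, Psrc1, Gtse1, Eda2r, Aen, Btg2 and Trp53inp1. Mdm2 and Mdm4, whose products restrain p53, had distal ELK4 peaks 6984 bp upstream and 5109 bp downstream. The p53 element lay in 11 of the 18 ELK4 peaks at these genes, and the ELK4 word in 0 of 18. Cdkn1a had 2 ELK4 peaks, 32 and 11924 bp upstream of its TSS. Bbc3 also had 2, 115 and 876 bp upstream, and neither matched the element.

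Some sites were common to the factors. Of the peaks 10 overlapped by at least 1 bp, 1.91% of the ELK4 list (0.919 to 3.48%) and 0.850% of the C/EBPβ list (0.408 to 1.56%). They lay at the start sites of genes including Nup35, Nars, Mpc2, Mideas, Dnajb6 and Cenpl, at the paired promoters of Cyb5d2 and Zzef1, upstream of Cdkn1a, and near Rpp21. The Rpp21 region, chr17:36231209-36231608, had the same coordinates in both lists and overlapped all 14 lists. At Cdkn1a the centres were 16 bp apart, at a p53 element 11924 bp upstream of the TSS, and the C/EBPβ peak held a C/EBP-ATF element.

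Nup35 had the closest pair after Rpp21, 14 bp apart, and the only one in which the ELK4 word was in the ELK4 peak and a C/EBP word in the C/EBPβ peak. In the printed sequence the last T of CCGGAAGT is the first T of TTGCGCAA. Such neighbours were then counted in both lists. A C/EBP word within 5 bases of CCGGAA lay in 7 of 324 C/EBPβ promoter peaks (2.16%, 0.873 to 4.40%), among them those at Sf3b2, Nup35, Fam110a, Miip, Ccdc97 and Tbrg1. It lay in 2 of 340 ELK4 promoter peaks (0.588%, 0.0713 to 2.11%), at Nup35 and Cenpl, and at 11 of all 25999 promoters (0.0423%). Both sequences lay in 36 of the 324 C/EBPβ promoter peaks, in 29 of them further apart. Of 853 distal C/EBPβ peaks 1 had the close pair (0.117%). C/EBP words alone were in 46.9% of C/EBPβ promoter peaks and 2.11% of all promoters, so the shares of close pairs differ in part by selection. The count of close pairs was made after the Nup35 sequence had been read, so it is a description.

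By nearest gene, 51 genes were targets of both factors, 10.1% of the ELK4 genes (beside 5.19% of all coding genes near a C/EBPβ peak) and 4.68% of the C/EBPβ genes (beside 2.41% of all near an ELK4 peak). At promoters the overlap was 12 genes, 3.56% of ELK4 genes (all coding genes 1.53%) and 3.73% of C/EBPβ genes (all coding genes 1.6%). These overlaps are descriptions with no test. The 12 included Per1, Nup35, Mpc2, Mideas, Sec23ip, Hacd2, Kifbp, Ier2, Nars, Pafah1b2 and Dnajb6. Per1, a core gene of the circadian clock, had an ELK4 peak 51 bp and a C/EBPβ peak 17 bp upstream of coding start sites, with centres 1169 bp apart, that is, at different start sites. Pafah1b2 had its closest peaks 27242 bp apart.

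The 2 sets of peaks also differed in the other lists that held them. Of C/EBPβ promoter peaks 95.1% (308 of 324) overlapped a C/EBPβ peak of macrophages (MAC), 80.9% one of blood progenitors (HP) and 52.5% one of hemangioblasts (HB). Windows of 400 bp at all 25999 coding start sites met these lists in 18.7%, 1.85% and 0.565% of cases. ELK4 promoter peaks met them in 35.9% (30.8 to 41.2%), 4.12% (2.27 to 6.81%) and 1.47% (0.479 to 3.40%). For distal C/EBPβ peaks these shares were 55.5%, 34.9% and 23.9%, and for distal ELK4 peaks 11.4%, 2.17% and 0.543%. Of the 184 distal ELK4 peaks 94 held a p53 element, and these shares are not given without them. PU.1 peaks of macrophages met 17.4% of the 184 (12.2 to 23.7%) and 25.6% of the 90 without the element (16.9 to 35.8%). They met 14.9% of distal C/EBPβ peaks. Windows at coding start sites are no background for distal peaks, and no distal background was counted. Of the other lists, ELK4 promoter peaks met that of PU.1 in macrophages most often, in 205 of 340 cases (60.3%, 54.9 to 65.5%), and C/EBPβ promoter peaks met it in 48.8% (43.2 to 54.4%). That list holds 82866 peaks and met 31.3% of the windows at all coding start sites (the difference between the lists was not tested). In blood progenitors 12.4% of ELK4 promoter peaks (9.05 to 16.3%) and 6.79% of C/EBPβ promoter peaks (4.30 to 10.1%) met PU.1, as did 4.42% of the windows. In no other list were 43.9% of ELK4 peaks and 31.2% of C/EBPβ peaks, and none of the other lists analysed here is of ELK4.

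**Figure D5:**
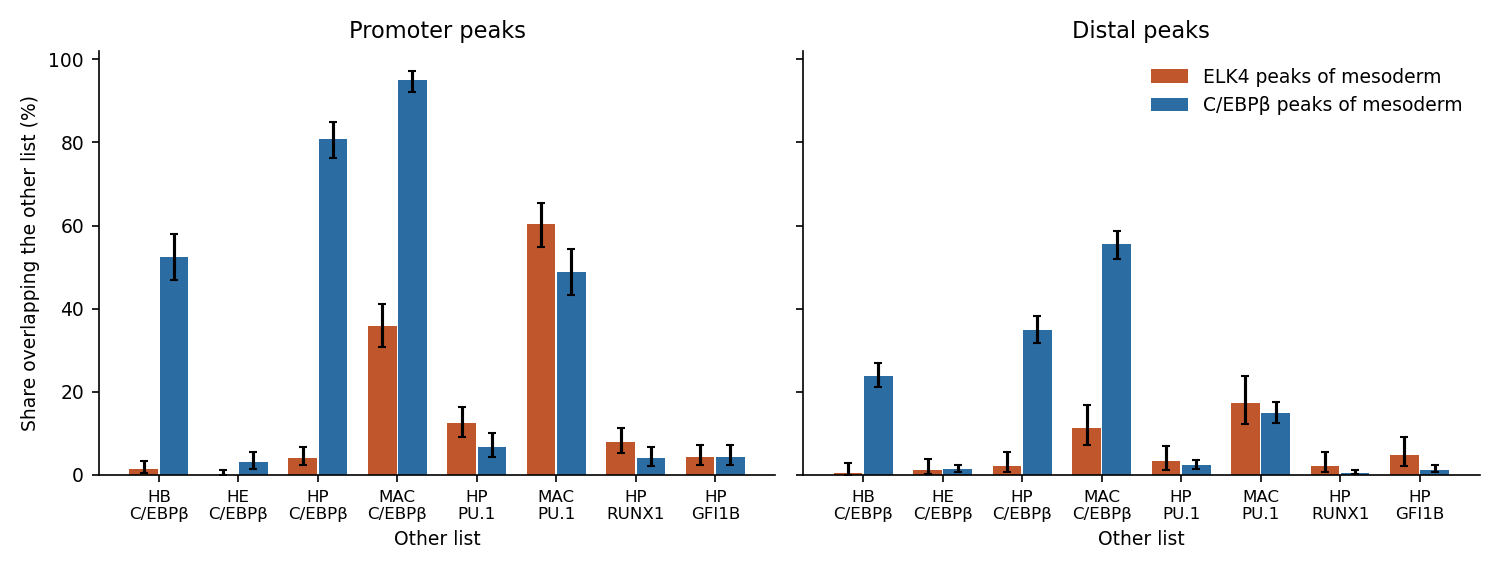
Share of mesoderm promoter (left) and distal (right) peaks that overlap 8 of the other lists (y axis, percent), ELK4 in orange and C/EBPβ in blue, with exact 95% intervals. HB is hemangioblast, HE hemogenic endothelium, HP blood progenitors and MAC macrophages. C/EBPβ promoter peaks meet the macrophage C/EBPβ list at 95.1%, and ELK4 promoter peaks meet macrophage PU.1 at 60.3%.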

How the data were processed

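ChIP-seq had been done on sorted mesoderm with antibodies to ELK4 and C/EBPβ. By the paper's methods, the authors aligned reads with Bowtie to mm10, removed duplicates, called peaks with MACS against input, refined them with polyPeak and set a common width. The deposited values are peak positions (chromosome, start, end) with no score, count or p-value, so that depth and peak height were not used here. All deposited peaks were 400 bp wide.

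Peak centres were compared with 26032 RefSeq coding TSS of GRCm38. Words were searched on both strands of each peak, of windows 2 kb to each side and of 400 bp windows at 25999 distinct TSS. Fisher's exact tests were two-sided, with Benjamini-Hochberg adjustment over 24 comparisons. Intervals are Clopper-Pearson at 95%. Gene groups (24 fixed, 1 added) were counted without a test. The members and lists were chosen with earlier results of these data known. Named genes were group members with a promoter peak, up to 8 a group, nearest first. In the immediate early and p53 target groups all such members were named. Also named were the 10 nearest promoter targets with the factor's word, genes with 3 or more peaks (up to 6), and shared genes and peaks. The p53 element, its gene group and the paired ELK4 and C/EBP words were added after the values were seen. Programs were tested on simulated data and used Python 3.11.15, NumPy 2.4.6, SciPy 1.17.1, pandas 2.3.3 and Matplotlib 3.10.9. The TSS window and set, the overlap rule, the words and the peaks kept were varied. A few genes and 1 site that these rules name are not reported here.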

Additional observations from a re-analysis of the deposited data

How the results depend on the processing

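The promoter difference of 37.4 points between ELK4 and C/EBPβ stayed between 35.8 and 37.7 points over the 7 alternatives planned (windows of 1 and 5 kb, other TSS sets and overlap rules, recurrent and tRNA peaks left out), and was 50.8 without peaks holding a p53 element. The 13 consensus comparisons that passed became 13 to 15. Shared peaks, 10 in number, were 9 to 14. The 51 shared target genes depended on the assignment, with 32 when the TSS had to be within 50 kb and 12 for promoter peaks, and 36 and 37 under the other two rules. The 110 ELK4 peaks with a p53 element became 76 with at most 1 mismatch, 107 in the central 200 bp and 30 with 0 mismatches, a stricter match by construction. The counts of immediate early (9), amino acid stress (8) and tRNA synthetase genes (8) each became 7 with a window of 1 kb. A stricter peak threshold could not be tried, because the lists hold no scores, and with 1 list a factor no replicate could be left out. No paired analysis was possible because each factor had 1 list.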

Other observations

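Some start sites outside the gene groups carried the plain word of the factor that bound them. For ELK4 the 10 nearest to a TSS included Wdr3, Zbtb17, 1700030J22Rik, Ttll10, Ccdc157, Dync2h1, Nup35, Setd4 and Ccdc25, with centres 1 to 24 bp from the TSS. For C/EBPβ they were Ccdc97, Nup35, Spty2d1, Hjurp, Nsun4, Ids, Foxf2, Eid2b, Pcdhgb5 and Per1, with centres 2 to 17 bp away. Nup35 was on both. Peaks within 500 bp of a tRNA gene numbered 1 for ELK4 and 11 for C/EBPβ.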
